A study of Mus musculus with 6 samples.

Results

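ATP-binding cassette (ABC) genes encode proteins that share a nucleotide-binding domain and, in most subfamilies, use ATP to move substrates across membranes. The family was taken as every gene in the deposited table whose symbol starts with Abc, followed by a subfamily letter from a to g, a number and at most 1 further letter. This gave 48 of 19832 genes. The mean over the 6 libraries reached 1 FPKM (a fragment level corrected for transcript length and library size) in 29 of them, and these were tested. The other 19 are listed with their range or highest value and were not tested with that filter on level. The gene at the edge on the upper side was Abca9, with a mean of 1.19 FPKM, and on the lower side Abcg1, with 0.948 FPKM. Family genes with other symbols, Tap1 and Tap2, are given with the companion genes further on.

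The cells were EO771, a mouse mammary tumour line. A control group of 3 libraries was set against 3 libraries from cells given recombinant lipocalin-2 (LCN2), a small secreted protein of the lipocalin family that captures bacterial iron carriers. The labels name no other treatment, no dose and no duration, and they do not say whether the replicates were separate cultures, and the spread behind each p-value may therefore be technical only. The question was how the family's transcripts differed with LCN2.

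Subfamily A is made up of full-length lipid transporters, such as the cholesterol exporter ABCA1. Subfamily B mixes the multidrug pump P-glycoprotein with half-size transporters of mitochondria, lysosomes and other membranes. Subfamily C holds the multidrug resistance proteins, which export conjugated and anionic compounds. Subfamily D imports fatty acyl-CoA into peroxisomes, while Abcd4 handles vitamin B12 in lysosomes. Subfamilies E and F lack membrane domains and act in translation. Subfamily G holds half-size transporters, among them the drug pump ABCG2 and several sterol exporters. In tumours the family is best known for multidrug resistance, in which P-glycoprotein, ABCG2 and members of subfamily C pump cytotoxic drugs out of the cell.

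The column sums lay between 391569 and 410808 FPKM, and each library listed 13299 to 13461 genes above 0. The number of reads behind them is unknown. Of the epithelial markers, Krt8 stood at 308 ± 7.37 FPKM (SD, n = 3) and Krt18 at 693 ± 31.0 FPKM in control cells, while Cdh1 was near 0 (0.140 ± 0.0384 FPKM). The mast cell markers Cpa3, Fcer1a, Mcpt4 and Tpsb2 were listed at 0 in all 6 libraries, and the leukocyte marker Ptprc was at 0.0211 ± 0.00600 FPKM in controls. Cd68, a marker of macrophages, stood at 8.48 ± 1.02 (control) and 9.09 ± 0.256 FPKM (LCN2) (adjusted p = 0.16 in limma). Of 7 tested epithelial markers 2 were called higher and 3 lower with LCN2, or 71.4% called beside 21.5% of all genes tested. The summed level of all 9 epithelial markers, tested or not, was 1277 to 1341 FPKM in control and 1239 to 1258 FPKM in LCN2 libraries. The fibroblast-associated gene Dcn was abundant and also rose, from 504.5 ± 30.8 to 595.5 ± 16.6 FPKM, while Pdgfra was at 4.30 ± 0.543 and 3.61 ± 0.219 FPKM (adjusted p = 0.23), Col1a1 was near 0 and Pdgfrb was listed at 0. The summed level of the fibroblast markers was 488.8 to 544.8 FPKM in control and 580.7 to 612.1 FPKM in LCN2 libraries. Nearly all of this sum is Dcn, so it adds no evidence beyond that gene. Col1a2, also a fibroblast marker, has no entry in the deposited table. The part of these markers in the results was not tested. On the first principal component, which held 60.5% of the variance, LCN2 replicate 2 (4.33) lay between the other LCN2 libraries (15.7 and 16.5) and the controls (-17.3 to -8.09).

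The multidrug pump genes of subfamilies B and G rose with LCN2, and parts of subfamilies A, B and C fell. Among 29 tested members, 3 were called higher (Abcb1a, Abcb1b and Abcg2) and 4 lower (Abca9, Abcb9, Abcc2 and Abcc3), with limma and a Benjamini-Hochberg adjusted p under 0.05 over all genes. That is 24.1% of the tested members, where 21.5% of all 10309 genes tested were called. Calls upwards took 10.3% of the members against 11.6% of all genes, and calls downwards 13.8% against 9.96%. The share of the family that was called was thus close to that of the whole table. Without control replicates 1, 2 and 3 the members called higher and lower numbered 3 and 1, 3 and 2, and 3 and 0. Leaving out LCN2 replicates 1, 2 and 3 gave 2 and 0, 4 and 5, and 2 and 0. Over all 10309 genes, calls higher and lower numbered 399 and 211, 1011 and 790, and 265 and 149 without these control replicates. They numbered 175 and 89, 1623 and 1525, and 297 and 191 without these LCN2 replicates. Of all genes called with all 6 libraries, 53.8% were higher. This share was 29.2% with values as deposited and 42.1% with equal column sums, while the same 7 members were called under both of these scalings. The median log2 fold change of the family was -0.03, beside -0.0013 for all genes. Fold changes are LCN2 minus control on log2(FPKM + 1) after scaling, a scale that compresses changes in weakly expressed genes. The levels come from bulk cultures, where fewer cells expressing a gene and less RNA per cell cannot be told apart.

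**Figure D1:**
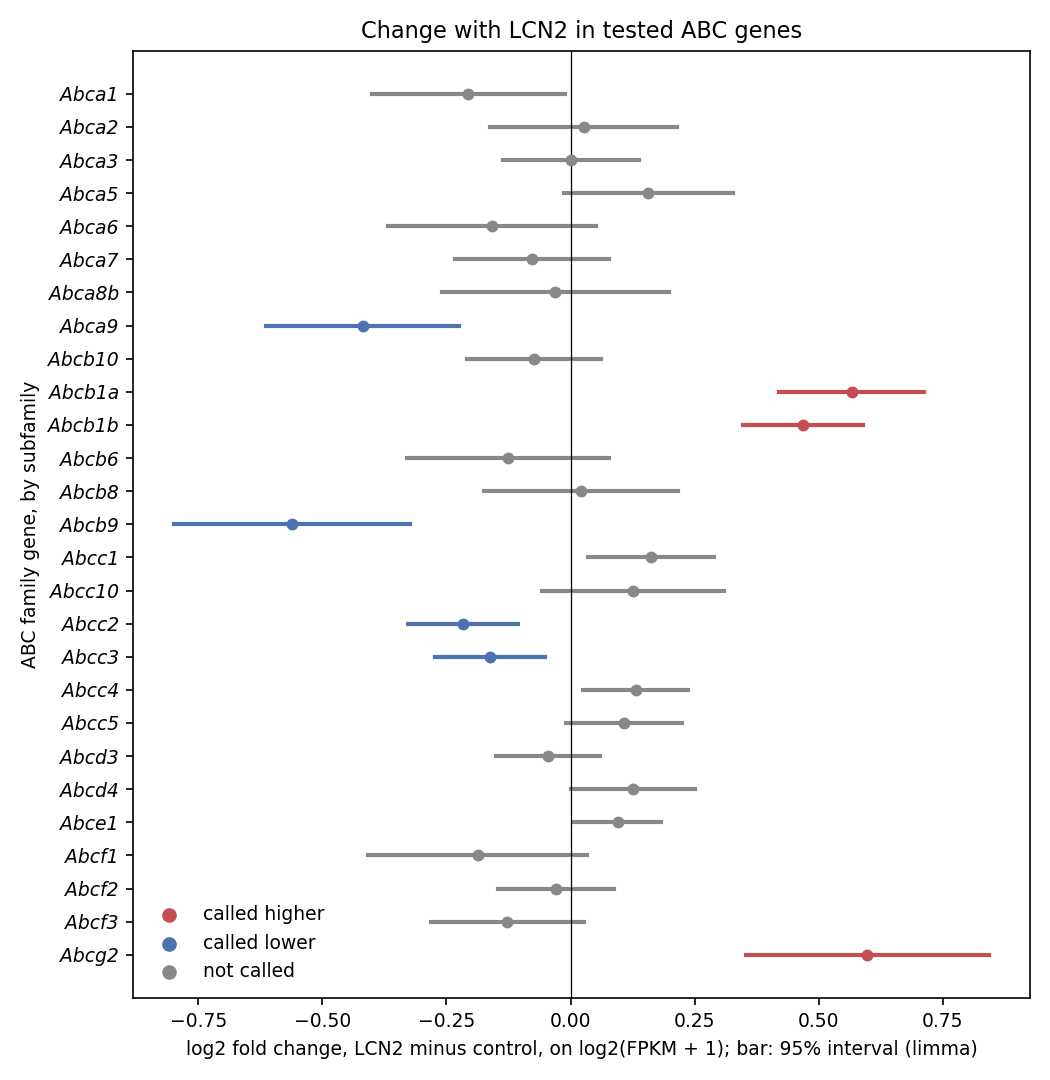
Log2 fold change with LCN2 (x axis, LCN2 minus control on log2(FPKM + 1)) of 27 tested ABC genes (y axis, by subfamily), with 95% intervals from limma. Red points are the 3 genes called higher, blue points the 4 called lower and grey points 20 that were not called; Abcg2 has the highest value (0.60) and Abcb9 the lowest (-0.56).

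Levels differed widely within the family. Abce1 had the highest mean, 77.9 FPKM, followed by Abcc5 (52.4), Abcf1 (39.4), Abcc3 (36.6), Abcf2 (34.8) and Abcc2 (31.9). In control cells the 9 drug efflux genes made up 38.0% of the family's summed FPKM, and the 5 sterol exporters 1.40%. The summed level of the whole family was 466 to 511 FPKM in control and 463 to 473 FPKM in LCN2 libraries, which overlap. By subfamily, the control sums averaged 62.2 FPKM in A, 73.1 in B, 152 in C, 22.9 in D, 77.0 in E, 90.3 in F and 6.13 in G. Subfamily G thus had the lowest sum, although it holds one of the genes that rose.

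**Figure D2:**
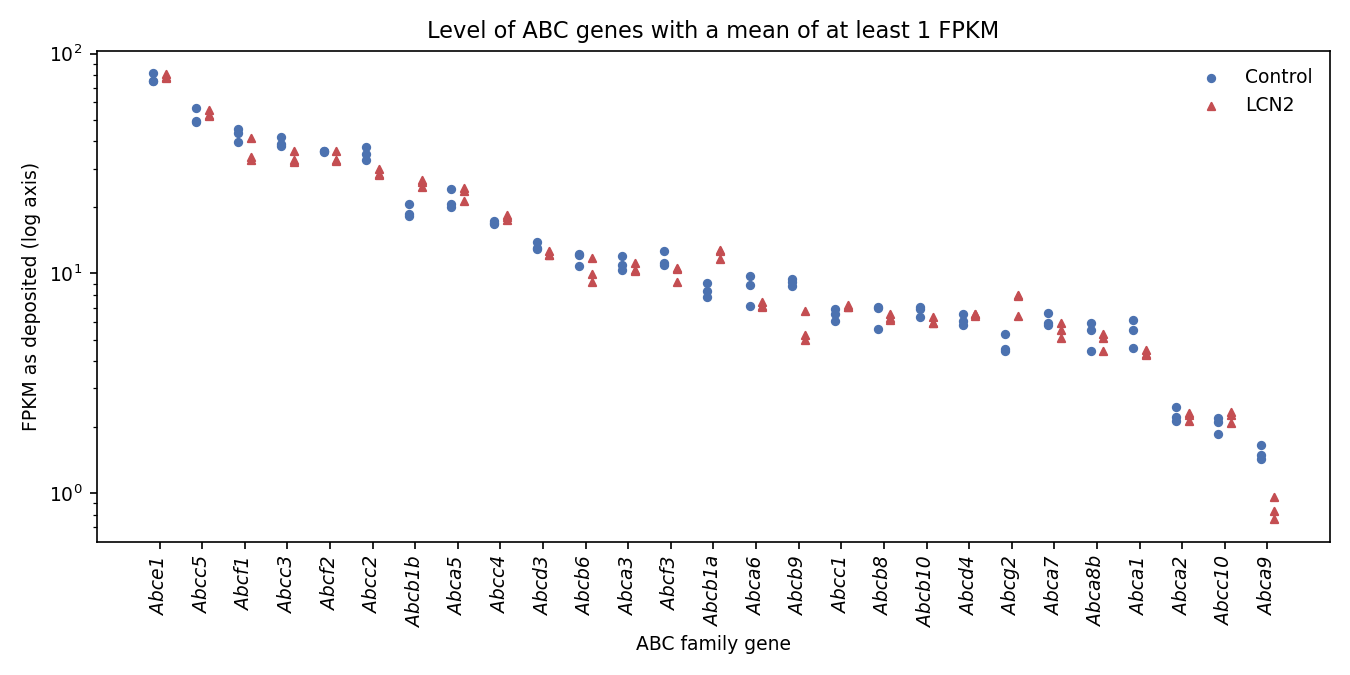
FPKM as deposited (y axis, log scale) of 27 tested ABC genes (x axis, ordered by mean), with 1 point for each library. Circles are the 3 control and triangles the 3 LCN2 libraries; means run from 77.9 FPKM in Abce1 to 1.19 FPKM in Abca9.

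The promoter windows of the genes with the largest changes are shown first, because Abcb1a and Abcb1b are neighbours that moved together and Abcg2 moved the same way, while Abcb9 moved the other way. Each window runs from 250 bases before to 50 bases after a RefSeq start site (GRCm38.p6), and 36 of the 48 members have at least 1 window in the RefSeq table. Both strands were searched for 5 motifs: CCAAT (a box bound by the factor NF-Y), GGGCGG (the GC box), TGANTCA (AP-1), TGACNNNGC (antioxidant response element core) and CACGTG (E-box). The AP-1 and antioxidant patterns can overlap, since both may start with the same bases. Capitals mark every match.
Abcb1a, chr5:8566841-8567140, plus strand: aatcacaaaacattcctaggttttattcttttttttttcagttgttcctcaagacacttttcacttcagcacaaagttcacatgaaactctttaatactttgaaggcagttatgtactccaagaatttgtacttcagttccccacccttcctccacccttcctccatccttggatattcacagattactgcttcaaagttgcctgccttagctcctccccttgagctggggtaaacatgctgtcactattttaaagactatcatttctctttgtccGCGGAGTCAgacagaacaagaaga
Abcb1b, chr5:8797897-8798196, plus strand: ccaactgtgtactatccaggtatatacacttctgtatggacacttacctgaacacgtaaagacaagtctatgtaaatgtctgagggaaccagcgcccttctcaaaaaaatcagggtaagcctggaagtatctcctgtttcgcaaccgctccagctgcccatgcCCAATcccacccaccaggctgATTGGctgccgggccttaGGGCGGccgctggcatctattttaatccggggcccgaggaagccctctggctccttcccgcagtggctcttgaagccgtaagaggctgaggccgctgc
Abcg2, the third of its RefSeq starts, chr6:58640296-58640595, plus strand: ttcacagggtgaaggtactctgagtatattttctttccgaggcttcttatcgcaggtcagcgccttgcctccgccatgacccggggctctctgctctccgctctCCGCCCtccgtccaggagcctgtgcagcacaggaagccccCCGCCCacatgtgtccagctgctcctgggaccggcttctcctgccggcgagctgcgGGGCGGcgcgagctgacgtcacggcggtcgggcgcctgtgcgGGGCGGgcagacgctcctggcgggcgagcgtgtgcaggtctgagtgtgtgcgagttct
Abcb9, chr5:124095749-124096048, minus strand: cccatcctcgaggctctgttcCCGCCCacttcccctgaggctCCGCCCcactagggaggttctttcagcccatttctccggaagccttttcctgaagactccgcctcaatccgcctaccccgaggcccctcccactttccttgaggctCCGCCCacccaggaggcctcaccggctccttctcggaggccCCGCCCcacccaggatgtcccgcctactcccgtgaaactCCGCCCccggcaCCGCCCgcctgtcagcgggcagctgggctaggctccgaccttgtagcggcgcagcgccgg

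The Abcb1b window held 2 CCAAT boxes, one on each strand, and 1 GC box. The Abcb1a window held neither and had 1 antioxidant core. Its start site lies 92986 bases upstream of the gene start in GENCODE M21, far from the window. The Abcg2 window shown is the one of its 3 with the most matches, 4 GC boxes, and its start lies 56023 bases from the GENCODE start. The second start, 12149 bases away, had 2 GC boxes and 1 CCAAT box, and the first, 10 bases away, had no match to any of the motifs. The Abcb9 window held 6 GC boxes. Over all 32851 RefSeq windows of 300 bases, 37.4% held a CCAAT box, 35.7% a GC box, 7.81% the AP-1 pattern, 12.4% the antioxidant core and 7.15% the E-box. Among the other members that fell, the windows of Abca9 and Abcc2 held no GC box, and that of Abcc2 held 2 CCAAT boxes and 1 antioxidant core. Abcc3, which also fell, has no window among those searched. Matches to the motifs thus differed among genes that moved the same way, and which start these cells used was not measured.

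Abcb1a and Abcb1b, the mouse genes that together stand for human ABCB1 and encode P-glycoprotein, both rose. Abcb1a (chromosome 5, 8660077 to 8748575, GRCm38) had 7.84, 9.02 and 8.34 FPKM in control replicates 1 to 3 and 12.7, 11.6 and 12.8 FPKM in LCN2 replicates 1 to 3. All 3 LCN2 libraries lay above all controls. The mean went from 8.40 ± 0.591 to 12.4 ± 0.672 FPKM (n = 3 each), 47.4% higher, with a log2 fold change of 0.57 (SE 0.06, adjusted p = 0.0045 in limma).

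Abcb1b (chromosome 5, 8798147 to 8866315) had 18.6, 20.8 and 18.3 FPKM in control and 26.1, 24.8 and 26.6 FPKM in LCN2 replicates 1 to 3. Again no LCN2 library fell within the control range, and LCN2 replicate 2 was the lowest treated library for both genes. The mean went from 19.2 ± 1.34 to 25.9 ± 0.943 FPKM, 34.4% higher (log2 fold change 0.47, SE 0.05, adjusted p = 0.0046). Whichever library was omitted, both genes stayed past the threshold (adjusted p of at most 0.032), and no other member did so in all 6 fits.

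Part of the reads of this pair cannot be assigned with certainty. Of the 50-base stretches in the GENCODE transcript of Abcb1a that was searched, 15.5% also occur in transcripts of Abcb1b, and of those of Abcb1b 18.0% occur in Abcb1a. The summed FPKM of both genes, which still depends in part on that division because each gene is scaled by its own length, was 26.5, 29.8 and 26.7 FPKM in control and 38.8, 36.4 and 39.5 FPKM in LCN2 replicates 1 to 3. The summed values thus separate the groups as each gene does. The ratio of Abcb1b to Abcb1a was 2.38, 2.30 and 2.20 in control and 2.06, 2.14 and 2.08 in LCN2 libraries, so Abcb1b was the more abundant gene in every library, and the ratio was lower in each LCN2 library than in each control. Values of both genes carry 8 significant digits, where the other members carry at most 7. For weakly expressed members such as Abcg2 and Abcb9, with fewer digits before the point, this comparison cannot show a difference. What made these rows differ is not stated, so the levels of both genes carry that uncertainty. The third gene of the cluster, Abcb4, which encodes the phosphatidylcholine floppase of the liver and starts downstream of Abcb1b, was near 0 (0.0123 to 0.0759 FPKM). Exons of Abcb1a and Abcb1b overlap those of Gm42686 and Gm5106 on the opposite strand.

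Abcg2, which encodes the breast cancer resistance protein, a half-size pump also used as a marker of side-population cells, rose as well. It had 4.56, 4.42 and 5.31 FPKM in control and 7.96, 6.44 and 7.87 FPKM in LCN2 replicates 1 to 3 (chromosome 6, 58584523 to 58695676). The groups did not overlap, and LCN2 replicate 2 was again nearest to the controls. The mean went from 4.76 ± 0.476 to 7.42 ± 0.856 FPKM, 55.9% higher (log2 fold change 0.60, SE 0.11, adjusted p = 0.013). The call did not hold when LCN2 replicate 1 (adjusted p = 0.061) or LCN2 replicate 3 (adjusted p = 0.056) was left out, while the fold change stayed between 0.53 and 0.69 over the 6 such fits. Of the 50-base stretches of its transcript, 0% occurred in other genes.

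**Figure D3:**
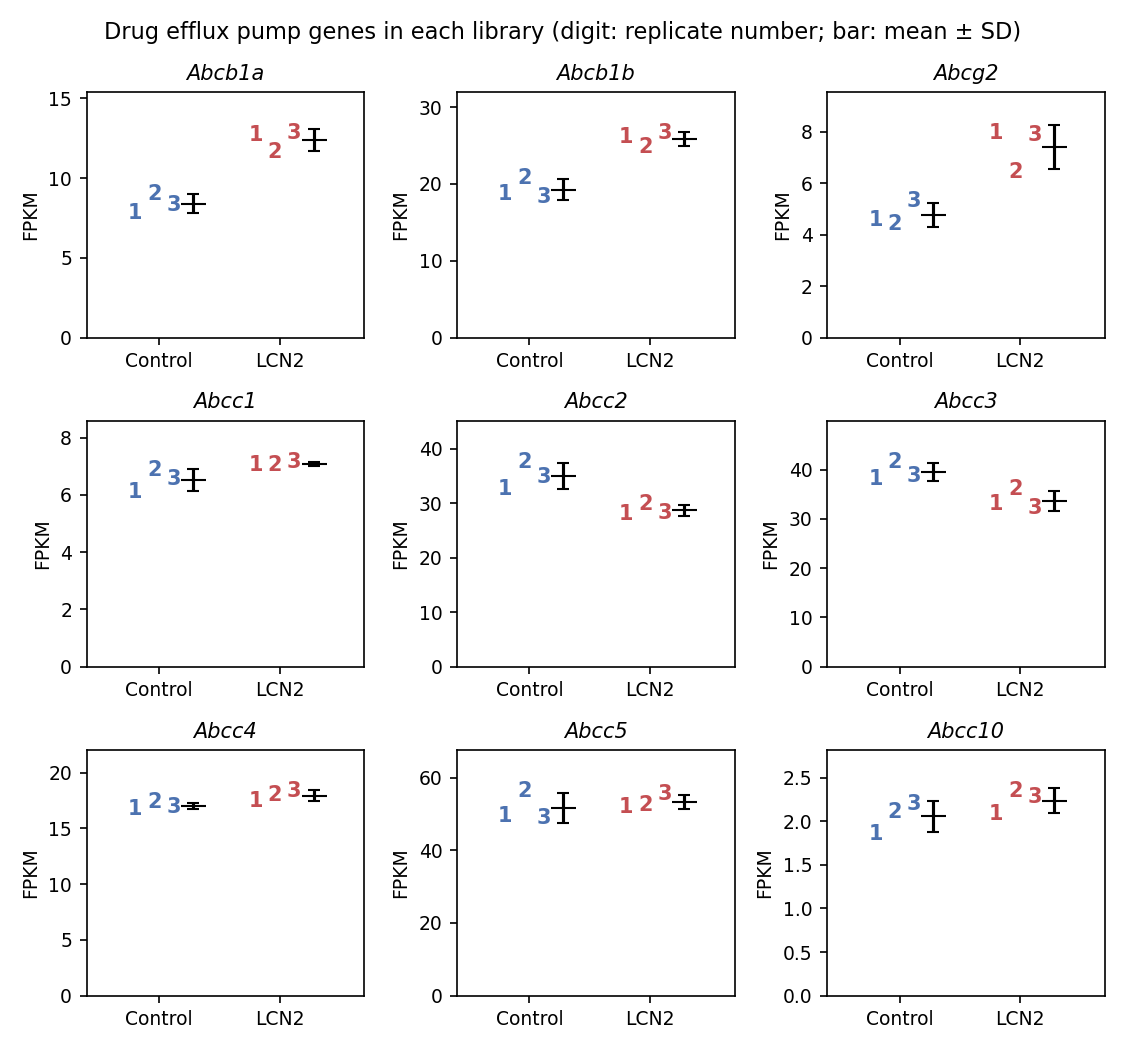
FPKM as deposited (y axes from 0) of the 9 drug efflux pump genes in the control and LCN2 groups (x axes), with a digit for each library giving its replicate number and a bar for mean ± SD (n = 3). Abcb1a, Abcb1b and Abcg2 are higher in all 3 LCN2 libraries, Abcc2 and Abcc3 are lower in all 3, and the ranges of Abcc5 and Abcc10 overlap.

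The 6 drug efflux genes of subfamily C moved the other way or not past the threshold, with 0 called higher and 2 lower. That is 33.3% called, beside 21.5% of all genes. Abcc2 encodes MRP2, an apical exporter of glutathione and glucuronide conjugates (chromosome 19, 43782192 to 43840740). It had 32.7, 37.6 and 34.8 FPKM in control and 28.003, 29.95 and 28.19 FPKM in LCN2 replicates 1 to 3. All treated libraries lay below all controls, and the mean was 35.0 ± 2.47 in control and 28.7 ± 1.07 FPKM with LCN2, a change of -18.0% with an adjusted p of 0.022 (log2 fold change -0.22, SE 0.05). Leaving out control replicate 2 (adjusted p = 0.055), control replicate 3 (0.080), LCN2 replicate 1 (0.087) or LCN2 replicate 3 (0.079) ended the call.

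Abcc3, which encodes the basolateral exporter MRP3 (chromosome 11, 94343295 to 94392997), was at 38.1, 41.5 and 38.7 FPKM in control and 32.9, 36.0 and 32.1 FPKM in LCN2 libraries. The lowest control library was above the highest treated library. Its fall, from 39.4 ± 1.85 to 33.7 ± 2.03 FPKM, was just past the threshold (log2 fold change -0.16, SE 0.05, adjusted p = 0.048). The call was kept only when LCN2 replicate 2 was left out (adjusted p = 0.014), and the other 5 such fits gave adjusted p between 0.10 and 0.15. It also ended with the filter lowered to 0.1 FPKM (adjusted p = 0.051), with none at all (0.059) and with no variance trend (0.069).

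The other 4 subfamily C pump genes had positive fold changes that did not pass. Abcc1, the gene of MRP1, had 6.10, 6.87 and 6.56 FPKM in control and 7.06, 7.05 and 7.15 FPKM in LCN2 libraries, groups that did not overlap (log2 fold change 0.16, 95% interval 0.03 to 0.29, adjusted p = 0.071). Abcc4, whose product MRP4 exports cyclic nucleotides and prostaglandins, had 16.7, 17.3 and 16.9 against 17.4, 18.0 and 18.4 FPKM (0.13, interval 0.03 to 0.24, adjusted p = 0.075). Abcc5, the most abundant pump gene, was at 51.6 ± 4.09 and 53.3 ± 1.87 FPKM (0.11, interval -0.01 to 0.22, adjusted p = 0.15). Abcc10 was at 2.06 ± 0.177 and 2.24 ± 0.139 FPKM (0.13, interval -0.06 to 0.31, adjusted p = 0.27), and its exons overlap those of Dlk2 on the opposite strand. The upper ends of the 4 intervals lie between 0.22 and 0.31, so rises up to that size remain possible for them.

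Across all 9 pump genes, 3 rose, 2 fell and 4 were not called, which is 55.6% called beside 21.5% of all genes. All 9 passed the filter on level. Their summed FPKM was 176, 196 and 180 in control and 186, 189 and 191 in LCN2 replicates 1 to 3. These sums overlapped (184 ± 10.6 and 189 ± 2.29 FPKM). The Abcb1 pair made up 5.71% and Abcg2 0.984% of the family's summed level in controls, against 31.3% for the subfamily C pumps. Leaving out LCN2 replicate 1 or 3 gave 2 higher and 0 lower, and leaving out control replicate 2 or 3 gave 3 higher and 0 lower. The counts were 3 and 1 when control replicate 1 was omitted, and 3 and 2 when LCN2 replicate 2 was omitted. Over all 10309 genes, calls numbered 175 higher and 89 lower, 1623 and 1525, and 297 and 191 without LCN2 replicates 1, 2 and 3. They numbered 399 and 211, 1011 and 790, and 265 and 149 without control replicates 1, 2 and 3.

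**Figure D4:**
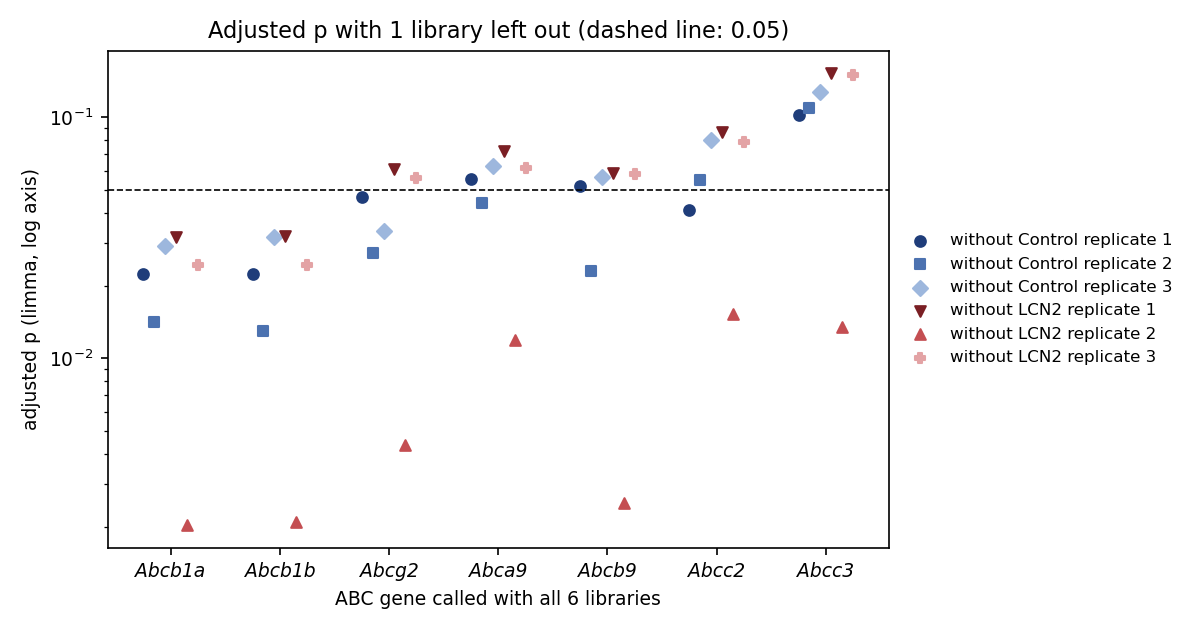
Adjusted p from limma (y axis, log scale) for the 7 called ABC genes (x axis) when each library in turn was left out, with 1 symbol for each library and a dashed line at 0.05. All 6 points of Abcb1a and Abcb1b lie below the line, 4 of Abcg2 do, and 1 or 2 do for each of the genes that fell; the lowest point of every gene is the fit without LCN2 replicate 2.

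The sterol exporters were little expressed. Abca1, which loads cholesterol and phospholipid onto apolipoprotein A-I, was the one member of 5 that passed the filter, with 4.602, 6.146 and 5.507 FPKM in control and 4.24, 4.31 and 4.48 FPKM in LCN2 replicates 1 to 3. The treated libraries were below all controls by a narrow gap, but the difference did not pass (5.42 ± 0.776 and 4.34 ± 0.122 FPKM, log2 fold change -0.21, 95% interval -0.40 to -0.01, adjusted p = 0.11). Abcg1, which passes cholesterol to high-density lipoprotein, was under the filter at 0.697 to 0.952 FPKM in control and 0.845 to 1.33 FPKM in LCN2 libraries. Abcg4 was at 0.354 to 0.809 FPKM over all libraries. Abcg5 and Abcg8, the sterol pumps of liver and intestine, were listed at 0 in every library, and their exons overlap each other.

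Of the 8 tested genes of subfamily A, 1 fell and 7 were not called, or 12.5% called beside 21.5% of all genes. Abca9, a gene whose substrate is poorly known, had 1.439, 1.653 and 1.4996 FPKM in control and 0.762, 0.962 and 0.830 FPKM in LCN2 replicates 1 to 3. The groups were well apart, and the mean fell, at 1.53 ± 0.111 in control and 0.851 ± 0.102 FPKM with LCN2 (log2 fold change -0.42, SE 0.08, adjusted p = 0.017; -0.72 with a pseudocount of 0.1). Leaving out control replicate 1 (adjusted p = 0.055), control replicate 3 (0.063), LCN2 replicate 1 (0.072) or LCN2 replicate 3 (0.061) ended the call.

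Abca9 lies in a cluster of 5 Abca genes on chromosome 11, all on the minus strand between 109932190 and 110337716, in the order Abca8b, Abca8a, Abca9, Abca6, Abca5. None of its 3 tested neighbours was called by limma. Abca6 was at 8.53 ± 1.33 and 7.17 ± 0.196 FPKM (log2 fold change -0.16, 95% interval -0.37 to 0.05, adjusted p = 0.23). Abca8b was at 5.31 ± 0.775 and 4.94 ± 0.445 FPKM (-0.03, interval -0.26 to 0.20, adjusted p = 0.84). Abca5, a lysosomal and endosomal transporter and the most abundant of the cluster, was at 21.6 ± 2.20 and 23.2 ± 1.66 FPKM (0.16, interval -0.01 to 0.33, adjusted p = 0.15), and it was called higher only when LCN2 replicate 2 was left out (adjusted p = 0.043). Abca8a was under the filter, at 0.134 to 0.235 FPKM. Whether these changes differ from that of Abca9 was not tested.

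The remaining tested genes of subfamily A had fold changes near 0. Abca2, an endolysosomal lipid transporter, was at 2.28 ± 0.181 and 2.24 ± 0.0918 FPKM (adjusted p = 0.83). Abca3, the surfactant lipid transporter of lung, was at 11.1 ± 0.803 and 10.6 ± 0.496 FPKM (adjusted p = 0.99). Abca7, a phospholipid transporter related to Abca1, was at 6.13 ± 0.426 and 5.52 ± 0.427 FPKM (adjusted p = 0.42). Abca17, which starts close to Abca3 on the other strand, was at 0.0398 to 0.0980 FPKM. Abca4 (retina) and Abca12 (skin) were at no more than 0.0578 and 0.0382 FPKM in any library, Abca14 at no more than 0.0119 FPKM, and Abca15 and Abca16 were listed at 0.

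In subfamily B, the half-size transporters of organelles gave 1 fall among 5 tested genes, or 20% called beside 21.5% of all genes. Abcb9, which encodes the lysosomal peptide transporter TAPL (chromosome 5, 124061530 to 124095798), had 9.42, 8.79 and 9.18 FPKM in control and 4.96, 6.77 and 5.25 FPKM in LCN2 replicates 1 to 3. All treated libraries were below the controls, and LCN2 replicate 2 was nearest to them. The mean went down from 9.13 ± 0.319 to 5.66 ± 0.971 FPKM, the largest fall on this scale among tested members (log2 fold change -0.56, SE 0.10, adjusted p = 0.014). The call ended on omission of control replicate 1 (adjusted p = 0.052), control replicate 3 (0.057), LCN2 replicate 1 (0.059) or LCN2 replicate 3 (0.058). Exons of Abcb9 overlap those of Gm34086 on the opposite strand.

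The mitochondrial and related members were not called. Abcb10, an inner-membrane transporter linked to heme synthesis, was at 6.73 ± 0.374 and 6.08 ± 0.225 FPKM (adjusted p = 0.37). Abcb8 was at 6.51 ± 0.822 and 6.32 ± 0.214 FPKM (adjusted p = 0.87). Abcb6, a porphyrin transporter, was at 11.8 ± 0.789 and 10.3 ± 1.32 FPKM (adjusted p = 0.32), but 90.3% of its 50-base stretches also occur in Gm29253, an overlapping transcript on the same strand, so its level is uncertain. Abcb11, the bile salt export pump, was at 0.00999 to 0.0886 FPKM, and Abcb5 was listed at 0.

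In subfamily C the members that are no drug pumps were all under the filter. Abcc12 was at 0.282 to 1.12 FPKM. Abcc8, the sulphonylurea receptor of potassium channels, was at 0.0136 to 0.140 FPKM, and Abcc6, which acts in the control of calcification, was listed at 0.

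Of the peroxisomal and lysosomal genes of subfamily D, limma called 0 of 3 tested at an adjusted p under 0.05, beside 21.5% of all genes. The unadjusted p of 2 of them was under 0.05 in limma. The share of all genes tested that pass this looser cut is above 21.5% and was not counted. No result is therefore read from these 2. Abcd2, a transporter of very long chain fatty acyl-CoA, was under the filter at 0.828 to 1.01 FPKM in control and 0.244 to 0.438 FPKM in LCN2 libraries. With the filter lowered to 0.1 FPKM it was called lower (log2 fold change -0.49, SE 0.08, adjusted p = 0.011 in limma).

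Abcd3, the most abundant gene of the subfamily (13.3 ± 0.533 and 12.3 ± 0.289 FPKM), had deposited values that did not overlap between the groups but a log2 fold change of only -0.05 (95% interval -0.15 to 0.06, adjusted p = 0.48). Abcd4, needed for release of vitamin B12 from lysosomes, was at 6.14 ± 0.354 and 6.50 ± 0.0667 FPKM (0.13, interval 0.0014 to 0.25, adjusted p = 0.12).

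Abce1, which splits ribosomes after termination, had 74.8, 81.5 and 74.8 FPKM in control and 80.7, 78.3 and 77.5 FPKM in LCN2 replicates 1 to 3. The groups overlapped, and the difference did not pass (log2 fold change 0.10, 95% interval 0.01 to 0.18, adjusted p = 0.11). Of the translation factors of subfamily F, Abcf1 had 39.6, 43.7 and 45.2 FPKM in control and 32.9, 33.8 and 41.5 FPKM in LCN2 libraries (-0.19, interval -0.41 to 0.03, adjusted p = 0.18). LCN2 replicate 3 was within the control range for this gene, and the others were below it. Abcf2 was at 35.9 ± 0.326 and 33.7 ± 1.88 FPKM (-0.03, interval -0.15 to 0.09, adjusted p = 0.70). Abcf3, a partner in the GCN2 pathway, was at 11.6 ± 0.933 and 10.1 ± 0.796 FPKM (-0.13, interval -0.28 to 0.03, adjusted p = 0.19). Abcg3, the last gene of subfamily G, was listed at 0.

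Companion genes that work with these transporters were read from the same fit. Of 15 tested genes of sterol handling and LXR, the nuclear receptor that induces Abca1 and Abcg1, 1 was called higher and 6 lower, or 46.7% called beside 21.5% of all genes tested (median log2 fold change -0.10, beside -0.0013 for all genes). Apoe, a lipid acceptor, fell from 37.98 ± 0.651 to 28.98 ± 1.29 FPKM (-0.32, adjusted p = 0.0094) and the gene of the lipogenic regulator SREBP1 (Srebf1) fell by 0.49. The gene that rose was Npc1, the lysosomal cholesterol exporter (0.24, adjusted p = 0.023), named after its value was seen, and it was not called with values as deposited. With control replicates 1, 2 and 3 omitted in turn the calls numbered 1, 4 and 1, and with LCN2 replicates 1, 2 and 3 omitted they numbered 0, 7 and 2. Over all 10309 genes these fits made 399 calls higher and 211 lower, 1011 and 790, and 265 and 149 without the control replicates. Without the LCN2 replicates they made 175 and 89, 1623 and 1525, and 297 and 191.

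Of 16 tested genes of glutathione conjugation and xenobiotic sensing, which supply or sense substrates of the subfamily C pumps, 2 were called higher and 7 lower, or 56.2% called beside 21.5% of all genes (median -0.22). The glutathione transferase gene Gsto1 rose from 384.5 ± 10.3 to 463 ± 15.9 FPKM (0.33, adjusted p = 0.0057). Mgst3 fell by 0.43 and glutathione reductase (Gsr) by 0.36, and the aryl hydrocarbon receptor gene Ahr, named after its value was seen, rose by 0.32 (adjusted p = 0.024). Nfe2l2, which encodes the antioxidant regulator NRF2, was among the genes that fell (75.4 ± 4.46 to 56.8 ± 6.42 FPKM, -0.35, adjusted p = 0.029), also named after its value was seen. Calls numbered 3, 7 and 3 without control replicates 1, 2 and 3, and 1, 11 and 2 without LCN2 replicates 1, 2 and 3. The same fits called from 175 higher and 89 lower (without LCN2 replicate 1) to 1623 and 1525 (without LCN2 replicate 2) of all 10309 genes.

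Of 7 tested genes of peptide loading for MHC class I, 1 was called higher and 1 lower, or 28.6% beside 21.5% of all genes (median 0.05). The light chain gene B2m rose from 428 ± 10.5 to 494 ± 4.68 FPKM (0.27, adjusted p = 0.0060) and the chaperone gene Calr fell from 363 ± 3.73 to 316 ± 9.91 FPKM (-0.14, adjusted p = 0.033). Tap1, an ABC gene of subfamily B by sequence, was at 1.56 ± 0.415 and 1.59 ± 0.390 FPKM (0.05, adjusted p = 0.83), and its partner Tap2 was under the filter at 0.435 ± 0.0672 and 0.554 ± 0.0827 FPKM. The fall of Abcb9 thus had no counterpart past the threshold in Tap1, although the difference between them was not tested. Calls numbered 1 on omitting replicate 1 or 3 of either group, 2 on omitting control replicate 2 and 3 on omitting LCN2 replicate 2. Over all 10309 genes, calls ran from 175 higher and 89 lower without LCN2 replicate 1 to 1623 and 1525 without LCN2 replicate 2.

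Of 10 tested genes of peroxisomal import and beta-oxidation, 1 was called higher and 0 lower, or 10% beside 21.5% of all genes: Acot8, a peroxisomal thioesterase, went from 17.48 ± 1.10 to 21.03 ± 1.85 FPKM (0.31, adjusted p = 0.022). The median of 0.0046 turned to -0.05 with values as deposited, where 1 gene was also called lower. Of 13 tested genes of mitochondrial heme and iron-sulphur assembly, 2 were called higher and 1 lower, or 23.1% beside 21.5% of all genes (median -0.08). Slc25a37, the mitochondrial iron importer that binds Abcb10, rose by 0.22 (adjusted p = 0.016), Cpox by 0.21 and Slc25a38 fell by 0.30. With values as deposited 0 were higher and 3 lower. Of 13 tested genes of ribosome recycling and GCN2 control, 2 were called higher and 0 lower, or 15.4% beside 21.5% of all genes (median 0.02), the initiation factor gene Eif3j1 (0.24, adjusted p = 0.016) and the release factor gene Etf1 (0.17, adjusted p = 0.029). With values as deposited 0 were higher and 2 lower.

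In these last 3 lists limma made 0 calls when replicate 1 of either group or control replicate 3 was omitted. Omitting LCN2 replicate 3 left 1, in the heme list. Without control replicate 2 there were 1, 3 and 3 calls in the peroxisomal, heme and ribosome lists, and without LCN2 replicate 2 there were 2, 5 and 5. Of all 10309 genes, 399 were called higher and 211 lower without control replicate 1. The numbers were 265 and 149 without control replicate 3, 175 and 89 without LCN2 replicate 1, and 297 and 191 without LCN2 replicate 3. They were 1011 and 790 without control replicate 2, and 1623 and 1525 without LCN2 replicate 2. Where few of all genes were called, 0 calls in lists this short say little about them.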

How the data were processed

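RNA sequencing of EO771 cells gave 1 deposited table of 19832 genes in 6 libraries (3 control, 3 LCN2). Although its name speaks of raw counts, 0% of the values above 0 are whole, so the authors' deposited values were treated as FPKM, a unit inferred from the values. The build was GRCm38, per the submitters' processing notes; for aligner, quantifier and strand setting the entry is: not given in the sources used here. At most 8 of the 782 to 822 low genes compared shared one ratio between libraries, so read depth was not recovered, and no interval that needs counts is given. Only columns named in the labels were used.

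Values were scaled by an unweighted trimmed mean of log ratios (trims 0.3 and 0.05; factors 0.972 to 1.06). The 10309 genes whose mean reached 1 FPKM were fitted as log2(FPKM + 1) with limma 3.58.1 in R 4.3.3, with a variance trend and no replicate term. Calls are two-sided at a Benjamini-Hochberg adjusted p under 0.05. The script was checked on simulated data. Levels are means ± SD of values as deposited. Values of Abcb1a and Abcb1b are among those of 1170 genes that carry over 7 significant digits, where the rest of the table does not. The companion genes Apoe, Srebf1, Gsr, Mgst3 and Nfe2l2 and the marker Krt8 are also among them. The step behind this is not stated. Positions are from GENCODE M21. Members are named by the symbol rule, with values from a mean of 1 FPKM upwards, and up to 3 called genes with the smallest adjusted p are named in each companion list. Members and lists were chosen with earlier results of these data known. Alternatives covered scaling, pseudocount, filter, variance trend, a replicate block and each library left out. Single values of a few genes that enter the counts and sums are not reported here.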

Additional observations from a re-analysis of the deposited data

How the results depend on the processing

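The calls of Abcb1a, Abcb1b and Abcg2 were kept under all 9 alternatives of scaling, pseudocount, filter, variance trend and replicate block, and those of Abca9, Abcb9 and Abcc2 under all of these but the block. With the replicate number as a block, 268 genes were called in place of 2221, and 3 members were higher and 0 lower; the adjusted p of the 4 members that had been lower was 0.059 to 0.10. The labels do not say that the numbers pair cultures, and deviations from the group means correlated at -0.22, -0.26 and 0.0086 between libraries of the same number, so no pairing was used; no library correlated best with the one sharing its number. No filter left 1471 genes called. Leaving out 1 library gave 264 to 3148 called genes, and 0 to 5 members called lower (2 to 4 called higher); the smallest counts over all genes came without LCN2 replicate 1 and the largest without LCN2 replicate 2. The fits without a library have fewer samples, and the cause of the differences between them was not tested. Scaling moved the balance of calls over all genes: 53.8% were higher with the reported scaling, 29.2% with values as deposited (693 higher, 1680 lower), 42.1% with equal column sums and 48.7% after quantile normalization, and the median of all genes went to -0.06 with values as deposited. Members near 0 changed sign: with values as deposited Abca2 was -0.015, Abca3 -0.055 and Abcb8 -0.032, with equal column sums Abca3 was -0.024 and Abcb8 -0.0023, and Abca3 was -0.010 after quantile normalization and -0.00095 with median-ratio scaling. With 1 library left out, Abca2 ranged from -0.024 to 0.081, Abca3 from -0.039 to 0.028, Abca8b from -0.12 to 0.039 and Abcb8 from -0.062 to 0.084; the cause was not tested. Read depth is unknown, so no precision based on counts can be given for the 19 members under the filter. With the filter lowered to 0.1 FPKM, limma called Abcd2 lower at an adjusted p under 0.05. Abca8a, Abcc12, Abcg1 and Abcg4 also passed that filter and were not called.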
